A study of Mus musculus with 106 samples.

Results

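Skeletal muscle fibers are built from sarcomeres whose myosin motors, troponin switches and myosin light chains come in fast and slow versions. The genes described here are 10 of these: the fast members Myh1, Myh2, Myh4, Tnni2, Tnnt3 and Mylpf and the slow members Myh7, Tnni1, Tnnt1 and Myl2. They were chosen by gene symbol, as the classic contractile markers of fiber type, from 19169 gene names listed for every tissue, and all 10 were listed in every tissue. Each fiber takes its speed of contraction mainly from the myosin heavy chain it carries, and the matching troponins and light chains usually follow the same fast or slow programme. Fiber type can shift with nerve activity, load, hormones and metabolic state, and skeletal muscle is also the tissue that shivers in the cold. Small strips of muscle lie next to several fat depots and can come along when those depots are dissected.

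The study compared male wild-type C57BL/6J mice kept at 22 °C with mice kept at 10 °C or at 34 °C, by bulk RNA sequencing of 106 libraries from 11 tissues. Mice entered at 8 weeks of age, and the labels give 12 weeks for quadriceps and the tissues of the 34 °C experiment and 11 weeks for the other tissues. Cold mice spent 5 days at 18 °C, 5 days at 14 °C and 2 weeks at 10 °C, and warm mice spent 4 weeks at 34 °C. Quadriceps had 3 libraries at 10 °C with 3 of their own at 22 °C, and 3 libraries at 34 °C with 3 others at 22 °C, each made from 2 pooled mice. The 2 quadriceps experiments used mice from different suppliers. The quadriceps labels give room temperature libraries without naming the experiment, so they were tied to one or the other by the prefix of their column in the count table. Reads summed over genes came to between 40427068 and 58290770 in the quadriceps libraries and between 4262403 and 62880248 in the others. All levels below are CPM (counts scaled to a common library total) after scaling by trimmed mean of M values (TMM) within a comparison, and a gene is called where the unadjusted p of edgeR's quasi-likelihood test was at most 0.05 and the fold change exceeded 1.5. Adjusted p is Benjamini-Hochberg over all genes tested.

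The promoters of Myh4, the member with the most reads in quadriceps, and of 3 slow members that varied together are shown first, as RefSeq gives them on GRCm38.p6, 250 bases before and 50 after the start, 5′ to 3′ on the gene's strand. Capitals mark E-boxes (CANNTG), M-CAT elements (CATTCC on either strand), TATAAA on the gene's strand and the CArG box, each searched on both strands except TATAAA, with no overlap between motifs. The Myh4 window lies at chr11:67237562-67237861 on the plus strand, and the start it is drawn around is 217 bases from the nearest CCDS transcript start in GENCODE.
Myh4: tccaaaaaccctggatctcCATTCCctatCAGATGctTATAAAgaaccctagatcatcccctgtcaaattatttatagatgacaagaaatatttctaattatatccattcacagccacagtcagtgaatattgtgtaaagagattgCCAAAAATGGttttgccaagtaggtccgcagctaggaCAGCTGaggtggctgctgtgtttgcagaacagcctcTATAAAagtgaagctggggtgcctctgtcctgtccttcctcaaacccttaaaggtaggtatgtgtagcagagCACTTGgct
Myh7, the slow myosin heavy chain, is read from chr14:54994577-54994876 on the minus strand.
Myh7: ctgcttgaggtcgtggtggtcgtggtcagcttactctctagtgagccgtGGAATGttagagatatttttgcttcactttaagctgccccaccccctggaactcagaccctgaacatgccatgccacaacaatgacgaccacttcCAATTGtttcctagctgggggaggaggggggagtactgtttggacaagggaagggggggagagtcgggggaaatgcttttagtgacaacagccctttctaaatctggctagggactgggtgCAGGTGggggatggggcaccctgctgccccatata
Tnni1, slow troponin I, is read from chr1:135799171-135799470 on the plus strand.
Tnni1: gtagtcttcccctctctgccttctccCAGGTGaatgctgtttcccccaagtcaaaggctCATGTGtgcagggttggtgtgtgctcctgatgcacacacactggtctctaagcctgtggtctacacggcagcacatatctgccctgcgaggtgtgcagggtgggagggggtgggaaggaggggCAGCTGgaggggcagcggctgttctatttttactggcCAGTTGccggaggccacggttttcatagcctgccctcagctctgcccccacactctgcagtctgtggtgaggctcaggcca
Tnnt1, slow troponin T, is read from chr7:4515926-4516225 on the minus strand.
Tnnt1: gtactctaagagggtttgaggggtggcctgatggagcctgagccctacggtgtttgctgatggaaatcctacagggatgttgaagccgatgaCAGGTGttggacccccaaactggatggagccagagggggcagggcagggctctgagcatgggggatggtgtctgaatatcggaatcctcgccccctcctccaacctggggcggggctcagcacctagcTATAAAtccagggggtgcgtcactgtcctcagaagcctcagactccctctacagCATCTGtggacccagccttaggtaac
Of the 10 members, 8 had a promoter in the table. Myh7, Tnni1 and Myl2 had 2 windows each, and the first is shown for Myh7 and Tnni1. The second Myh7 window held no CATTCC, and the second Tnni1 window held 2 E-boxes where the first held 4. The windows of Myl2 lie 8227 and 7762 bases from the nearest CCDS transcript start, so its matches do not describe the start of that transcript. An E-box was present in 72.3% of 32851 mouse promoters of this length, CATTCC in 14.7%, TATAAA in 8.32%, the CArG box in 1.63% and the MEF2 site in 0.557%. TATAAA occurred in the windows of the fast genes Myh1, Myh2 and Myh4 and in that of slow Tnnt1. In Myh2 it lies after the annotated start, at position 10. The windows of Mylpf, Myh7, Tnni1 and Myl2 held no TATAAA, and no member's window held the MEF2 site. E-boxes were found in the windows of Myh4, Mylpf, Myh7, Tnni1, Tnnt1 and Myl2 and not in those of Myh1 and Myh2. A match is a stretch of letters and says nothing of binding in these tissues.

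Fast genes made up nearly all of the fiber type transcripts in quadriceps. The 10 genes together took 10.9% to 14.1% of all quadriceps reads, and the 4 slow members took 0.0158% to 0.0861%. Per kilobase of transcript, the median over the 12 quadriceps libraries was 21522 CPM for Tnnt3, the fast troponin T, 13827 for Mylpf, the fast regulatory light chain, 12341 for Myh4, the type IIB myosin heavy chain, and 10114 for Tnni2, the fast troponin I. Myh1, the type IIX heavy chain, followed at 1051 CPM per kilobase and Myh2, the type IIA heavy chain, at 398. The slow genes were lowest, with 121 for Myl2, the slow regulatory light chain shared with heart, 68.9 for Tnnt1, 57.8 for Myh7 and 36.3 for Tnni1. Neighbors within the upper 4 and within the lower 4 overlapped in range. Myh1, at 755 to 2152 CPM per kilobase, lay below the whole range of Tnni2 and above that of Myh2, which reached 591. Myh2 in turn, at 225 or more, lay above the highest Myl2 value of 188.

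Counted per transcript length among Myh1, Myh2, Myh4 and Myh7, type IIB Myh4 made up 84.6% to 91.9% of myosin heavy chain reads in every quadriceps library. Myh1 made up 6.33% to 11.7%, Myh2 1.71% to 3.73% and Myh7 0.103% to 0.595%. These ranges span all 3 temperatures. The 3 fast heavy chains and Myh7 are close relatives: 26.7% of the 50-base words of the Myh1 transcript, 26.9% of those of Myh2 and 18.9% of those of Myh4 occur in another gene, mostly in each other, and 22.2% of those of Myh7, all of them in the cardiac gene Myh6. The troponin and light chain genes shared none. How reads from such stretches were split between the genes is uncertain, so the heavy chain shares are less firm than the troponin and light chain values.

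**Figure D1:**
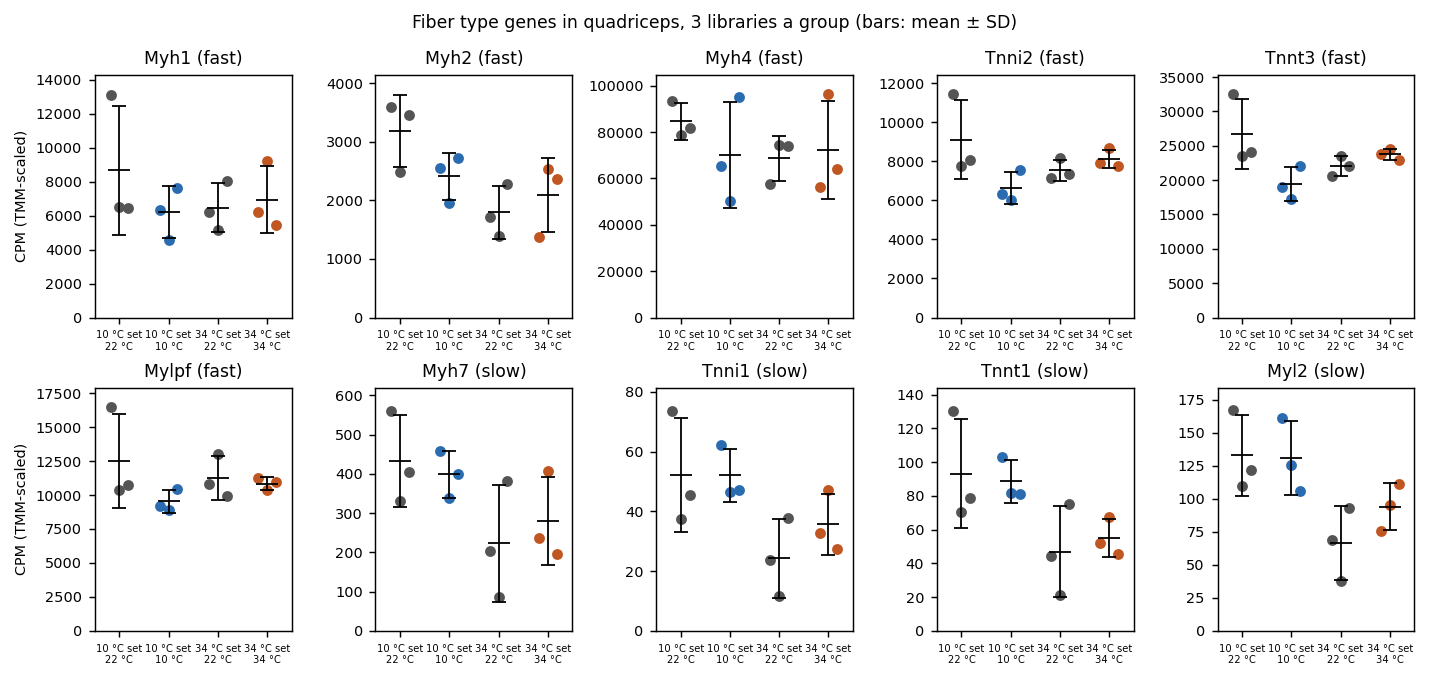
Level of each gene (y axis, CPM on a linear axis from 0) in the 12 quadriceps libraries, by experiment and temperature, with points for libraries and bars for mean ± SD (n = 3). Levels are scaled within each experiment. The 22 °C libraries of the 10 °C experiment hold the highest library for 9 of the 10 genes, and all 22 °C libraries of the 34 °C experiment lie below the other control mean for the 4 slow genes.

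At 10 °C none of the 10 members was called in quadriceps, where 449 of 11820 genes (3.8%) were. All 6 fast members had lower means in the cold, with log2 fold changes of -0.27 to -0.48, and the slow members were at -0.12 to -0.0050. Myh4 measured 65302, 50247 and 95187 CPM in the 10 °C libraries and 93470, 78629 and 81690 in their 22 °C controls. Its highest cold library exceeded every control and its lowest lay below every one, and the log2 fold change was -0.27 ± 0.43 (SE, adjusted p = 0.804, edgeR). Myh1 measured 6349, 4589 and 7661 CPM at 10 °C against 13084, 6489 and 6429 at 22 °C, with a log2 fold change of -0.48 ± 0.36 (adjusted p = 0.593, edgeR). One control library, number 1, stood well above the rest, and the other controls lay inside the cold range. Myh2 measured 2553, 1952 and 2721 CPM at 10 °C against 3597, 2477 and 3466 at 22 °C, a log2 fold change of -0.40 ± 0.22 (adjusted p = 0.511, edgeR).

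For the fast thin filament genes the groups separated without passing the test. Tnni2, which blocks the actin and myosin interaction at rest, measured 6340, 6008 and 7530 CPM at 10 °C and 11449, 7774 and 8084 at 22 °C, with a log2 fold change of -0.46 ± 0.25 (adjusted p = 0.506, edgeR). Tnnt3, which ties the troponin complex to tropomyosin, measured 19043, 17191 and 22027 CPM at 10 °C and 32588, 23494 and 24031 at 22 °C, with -0.46 ± 0.30 (adjusted p = 0.563, edgeR). In both genes every cold library lay below every control. Of all genes tested, 18.9% did not overlap between the groups and 9.16% lay entirely lower in the cold, against these 2 of 10. Mylpf measured 9205, 8930 and 10476 CPM at 10 °C against 16492, 10350 and 10707 at 22 °C, so that its highest cold library lay between the controls, and the log2 fold change was -0.39 ± 0.28 (adjusted p = 0.582, edgeR).

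No slow member separated between the groups in the cold. Myh7 measured 460, 338 and 399 CPM at 10 °C against 560, 331 and 406 at 22 °C (log2 fold change -0.12 ± 0.21). Tnni1 measured 62.2, 46.7 and 47.2 CPM at 10 °C against 73.7, 37.5 and 45.6 at 22 °C, with a log2 fold change of -0.0050 ± 0.25. Tnnt1 measured 103, 81.5 and 81.1 CPM against 130, 70.5 and 78.9, and Myl2 162, 126 and 106 against 167, 110 and 122. In all 4 genes control library 1 was the highest of the 6 libraries and control library 2 was the lowest in all but Myl2, where cold library 3 was lower. An interval of 2 standard errors for these genes reached from -0.54 at the low end, in Tnnt1, to 0.49 at the high end, in Tnni1, so changes smaller than about that could not be seen with 3 libraries a group.

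These directions depend on how the libraries were scaled. Scaling by total reads alone moved the median log2 fold change of all genes from 0.016 to 0.251. Under that scaling the fast members were at -0.06 to -0.23 and the slow members turned to 0.14 to 0.27, and again none was called. Relative to the median of all genes the fast members were lower under both scalings. A change of scaling moves all genes by about the same amount, so this was set in advance and is no test. Single libraries moved them too. Leaving out control library 1 brought the fast members to log2 fold changes of -0.056 for Myh1, -0.139 for Mylpf, -0.187 for Myh4, -0.255 for Tnni2, -0.288 for Tnnt3 and -0.30 for Myh2. Without the same library the slow members turned to 0.12 to 0.33, and none of the 10 was called. Without cold library 2 Myh4 was at -0.0725.

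Of the other contractile genes in the same quadriceps libraries few were called. None of 11 fast fiber partners (median log2 fold change -0.39) and none of 10 slow fiber partners (-0.0096) was called, beside a median of 0.016 over all genes. Of 12 sarcomere genes common to all fibers, Tcap, the titin cap, fell from 2071 to 1280 CPM (log2 fold change -0.69 ± 0.15, adjusted p = 0.242, edgeR) and Des, the muscle intermediate filament desmin, from 4316 to 2682 (-0.69 ± 0.28, adjusted p = 0.455, edgeR). Of 8 regulators of the oxidative program, 8 factors that set fiber type and 7 tested genes of developing muscle none was called. Fat markers moved in these libraries: 5 of 6 adipocyte markers were called higher at 10 °C, their sum reaching 429 to 1178 CPM against 281 to 481 at 22 °C, and so were 3 of 6 brown fat markers, with Ucp1 at a mean of 80.5 CPM against 0.168. The part of this fat signal in the values of the contractile genes was not tested. In a bulk sample, fewer cells of a type and less RNA per cell cannot be told apart.

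At 34 °C none of the 10 members was called, where 144 of 11745 genes (1.23%) were. Myh4 measured 56424, 96401 and 64219 CPM at 34 °C and 57399, 74386 and 74107 at 22 °C (log2 fold change 0.076 ± 0.24, adjusted p = 0.9997, edgeR). One warm library was the highest and another the lowest of the 6. Tnni2 measured 7912, 8650 and 7760 CPM against 7120, 8156 and 7344, and Tnnt3 23794, 24514 and 22950 against 20587, 23494 and 22046, both with a log2 fold change of 0.11 and overlapping groups. Mylpf alone had a lower mean in the warmth, at 11245, 10345 and 10946 CPM against 10799, 13033 and 9940 (-0.054 ± 0.15). Myh1, at 6232, 9197 and 5430 CPM against 6193, 5179 and 8020, and Myh2, at 1368, 2534 and 2364 against 1709, 1398 and 2281, overlapped fully. The fast members thus spanned -0.054 to 0.22 on the log2 scale.

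The slow members varied widely among the libraries at 22 °C of this experiment. Myh7 measured 237, 408 and 196 CPM at 34 °C and 203, 86.4 and 382 at 22 °C (log2 fold change 0.33 ± 0.48). Tnni1 measured 32.9, 47.1 and 27.3 CPM against 23.6, 11.5 and 37.9 (0.56 ± 0.38), and Myl2 75.5, 95.7 and 111 against 68.9, 37.7 and 93.1 (0.50 ± 0.29). Tnnt1 measured 52.1, 67.5 and 45.5 CPM against 44.3, 21.3 and 75.4. Control library 2 was the lowest and control library 3 the highest control in all 4 genes. Without control library 3 all 4 slow members were called higher at 34 °C, by 0.96 for Myh7, 1.03 for Tnni1, 0.75 for Tnnt1 and 0.82 for Myl2 on the log2 scale, and without control library 2 Myh7 was at -0.068 and Tnnt1 at -0.13. The slow gene estimates at 34 °C therefore rest on single control libraries. What share of all genes was called without control library 3 is not given. The 4 slow genes also rose and fell together across libraries, so their calls are not separate observations. Of the partner lists, the fast, slow, common sarcomere, oxidative regulator and fiber type factor genes had no calls, and Myh3, the embryonic myosin, rose from 5.40 to 8.60 CPM (0.68 ± 0.29, adjusted p = 0.9997, edgeR). Fat markers ran the other way than in the cold, with 1 of 6 adipocyte and 2 of 5 tested brown fat markers called lower at 34 °C, and their part in the contractile values was not tested.

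Whether the changes at 10 °C and 34 °C differed was tested in 1 model over all 12 libraries, each experiment against its own controls. No member was called, where 740 of 11803 genes (6.27%) were, and all 10 estimates of the 10 °C change less the 34 °C change were negative, from -0.32 for Tnnt1 to -0.63 for Myh2. Scaling by total reads alone moved the median of all genes in this contrast from -0.0052 to 0.295, so the signs depend on the scaling. The 22 °C libraries of the 10 °C experiment, higher than the other controls for all 10 genes, enter the contrast with a negative sign. Tnni2 (-0.58 ± 0.25, adjusted p = 0.372, edgeR) and Tnnt3 (-0.58 ± 0.26, adjusted p = 0.378, edgeR) had unadjusted p under 0.05 and a fold just under the limit. With single libraries removed, 0 to 3 members were called, namely 3 without 22 °C library 3 of the 34 °C experiment, 2 each without 22 °C libraries 2 or 3 or 10 °C library 3 of the 10 °C experiment, and 1 without 34 °C library 1. These refits have no share of all genes called beside them, since the 6.27% is that of the full fit.

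**Figure D2:**
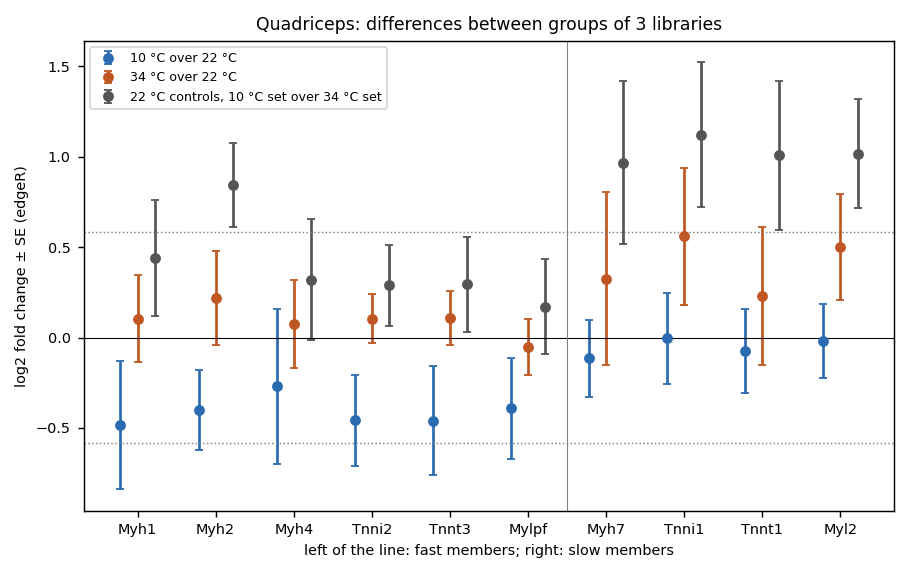
Log2 fold change ± SE (y axis, edgeR) of each gene in quadriceps for 10 °C over 22 °C, for 34 °C over 22 °C and for the 22 °C libraries of the 10 °C experiment over those of the 34 °C experiment, with 3 libraries a group and dotted lines at a fold of 1.5. The control difference is positive for all 10 genes and largest for Tnni1 (1.12), above every temperature difference of the same gene.

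The largest differences of the slow genes in quadriceps were between the 2 sets of 22 °C controls. Of the 10 members 4 were called higher in the controls of the 10 °C experiment, where 269 of 11712 genes (2.3%) were called and 0.931% were called higher. Tnni1 differed by 1.12 ± 0.40 on the log2 scale (adjusted p = 0.821, edgeR), Tnnt1 by 1.01 ± 0.41 (adjusted p = 0.821, edgeR), Myl2 by 1.02 ± 0.30 (adjusted p = 0.772, edgeR) and Myh2 by 0.84 ± 0.23 (adjusted p = 0.772, edgeR). Myh7 differed by 0.97 ± 0.45 and was not called (adjusted p = 0.821, edgeR). No gene of all those tested had an adjusted p under 0.05, 686 had an unadjusted p under 0.05, and these calls pass only the unadjusted limit. With each set's levels scaled within its own experiment, the groups did not overlap for Myh2, Myh4, Tnnt3 and Myl2, 4 of 10, beside 12.9% of all genes. For Tnnt3 the nearest libraries stood at 23494.3 and 23494 CPM, too close to call separate across 2 scalings. Only 2 members were called without 22 °C library 1 of either experiment, and the share of all genes called then is not given. Supplier and experiment cannot be told apart, and the sources disagree on the library kit of the 10 °C quadriceps: the labels name a stranded kit for all quadriceps libraries and the methods another for this experiment.

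Partners of the slow fiber differed in the same direction between the control sets. The CPM pairs given here are each scaled within their own experiment, while the log2 differences come from a common scaling of both sets. Of 10 slow partners 6 were called higher in the controls of the 10 °C experiment, with a median log2 difference of 0.65 beside -0.011 over all genes. They were Myl3, the slow essential light chain, at 207 against 125 CPM (0.74 ± 0.31), Tnnc1, the slow and cardiac troponin C, at 64.3 against 31.7 (1.04 ± 0.44), Atp2a2, the slow fiber calcium pump, at 255 against 156 (0.73 ± 0.31), Myoz2, a Z-disc protein of slow fibers, at 85.9 against 54.9 (0.67 ± 0.28), Myh7b, at 4.24 against 2.03 (1.09 ± 0.31), and Csrp3, a Z-disc protein, at 32.2 against 21.4 (0.61 ± 0.15). None of 11 fast partners was called (median 0.25). Prox1, a transcription factor of slow fibers, was called higher too, at 1.60 against 0.956 CPM.

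Within quadriceps the slow genes rose and fell together from library to library. After removing each group's mean, Pearson's r over the 12 libraries was 0.780 to 0.991 for the 6 pairs of slow members (median 0.915), 0.016 to 0.982 for the 15 pairs of fast members (median 0.658) and -0.168 to 0.763 for the 24 mixed pairs (median 0.233). These are descriptions, since genes of 1 library share its dissection, depth and scaling. The genes most like Myh7 by this measure, among 11793, were Atp2a2 (r = 0.978), Tnnc1 (0.971), Myl10 (0.963), Rnf8 (0.960) and Myh6 (0.960), of which Myh6 shares sequence with Myh7. Those most like Myh4 were Parp1 (0.977), Slc25a12 (0.969), Rnps1 (0.968), Atxn1l (0.968) and Nars (0.967).

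The interscapular brown fat (iBAT) libraries of the 10 °C experiment held the members at 0.153% to 0.684% of reads, the highest share after quadriceps. All 10 estimates were lower at 10 °C and 6 members were called lower, where 13.2% of 12793 genes were called and 6.96% were called lower. Myh2 measured 71.8, 58.6 and 53.4 CPM at 10 °C and 109, 174 and 197 at 22 °C, a log2 fold change of -1.38 ± 0.22 (adjusted p = 0.0055, edgeR). Myh1 measured 108, 201 and 107 CPM against 318, 217 and 394 (-1.16 ± 0.29, adjusted p = 0.0332, edgeR). These 2 passed an adjusted p of 0.05, and in both every cold library lay below every control. Myh4 measured 1256, 2020 and 793 CPM against 2702, 2295 and 2392 (-0.86 ± 0.30, adjusted p = 0.0977, edgeR). Tnni2 measured 290, 221 and 149 CPM against 577, 388 and 279 (-0.91 ± 0.30, adjusted p = 0.0804, edgeR), with the highest cold library just above the lowest control. Tnnt3 measured 510, 489 and 298 CPM against 1141, 741 and 607 (-0.94 ± 0.27, adjusted p = 0.0577, edgeR). Mylpf, at 416, 272 and 184 CPM against 699, 348 and 255, overlapped and was not called.

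The slow members had log2 fold changes of -1.25 to -1.60 in iBAT, with errors of 0.61 to 0.67, above the 0.22 to 0.38 of the fast members. Myh7 measured 164, 160 and 13.7 CPM at 10 °C and 280, 296 and 443 at 22 °C (-1.60 ± 0.67, adjusted p = 0.161, edgeR), and was the only slow member called. Tnni1 measured 42.9, 25.9 and 3.12 CPM against 59.5, 56.7 and 56.4, Tnnt1 70.3, 32.7 and 5.04 against 114, 87.1 and 89.0, and Myl2 75.7, 38.6 and 5.86 against 117, 95.4 and 106. In each of the 4 slow genes all cold libraries lay below all controls and cold library 3 was far below the other two. Over all members 8 of 10 did not overlap, where 33.1% of genes did not and 16% lay entirely lower in the cold. Without cold library 1 all 10 members were called lower, and without any other single library at least 4 were. For these refits the share of all genes called is not given, so the counts show only how the calls move.

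Other muscle genes were called lower in these iBAT libraries as well. Of 12 common sarcomere genes 11 were called lower (median log2 fold change -1.04, beside -0.013 over all genes), among them Acta1, skeletal actin, at 1025 against 1772 CPM (-0.79 ± 0.29), Ckm, muscle creatine kinase, at 633 against 1084 (-0.78 ± 0.30), Ttn, titin (-1.07 ± 0.34), and Neb, nebulin (-1.14 ± 0.31). Of 10 tested fast partners 8 were called lower, as were 6 of 10 slow partners and 4 of 8 factors that set fiber type, Six4, Eya1, Prox1 and Vgll2. Summed skeletal muscle markers that are not members were at 1440 to 2989 CPM at 10 °C and 3393 to 5149 at 22 °C. Liver markers moved too, with all 4 called lower and their sum at 0.127 to 0.752 CPM at 10 °C against 42.8 to 79.5 at 22 °C. Their part in the result was not tested, and muscle carried along with the depot cannot be told apart from contractile transcripts of other cells.

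**Figure D3:**
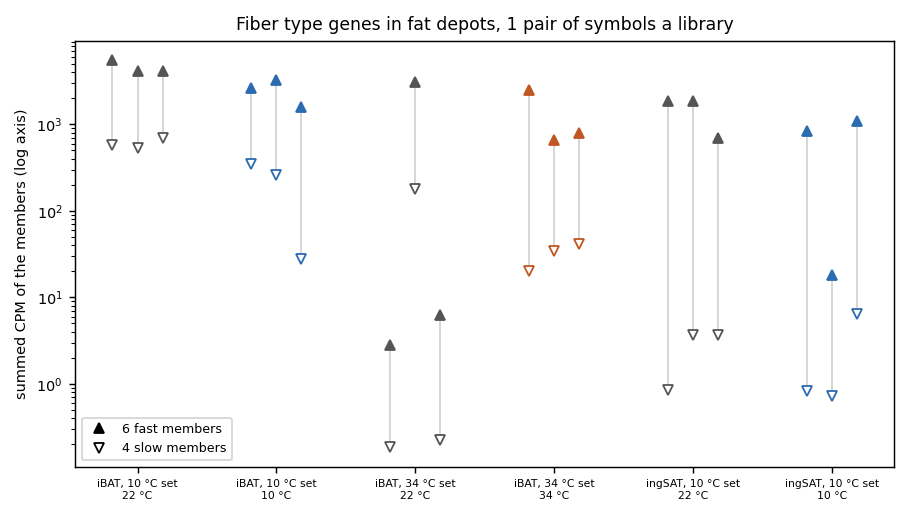
Summed CPM (y axis, log scale) of the 6 fast members (filled triangles) and the 4 slow members (open triangles) in each iBAT and inguinal fat library, grouped by experiment and temperature, with a line joining the pair of a library. The iBAT libraries of the 34 °C experiment at 22 °C range from 3.03 to 3258 CPM over the 10 genes.

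The iBAT of the 34 °C experiment had members spread over orders of magnitude at 22 °C. Myh4 measured 0.148, 1751 and 2.22 CPM at 22 °C and 1368, 352 and 360 at 34 °C. Myh7 measured 0, 110 and 0.0277 CPM at 22 °C and 11.4, 18.8 and 18.7 at 34 °C. Control library 2 thus held the highest and the other controls nearly none of either gene. None of the 10 members was called, where 19.4% of 12318 genes were, and the errors of the log2 fold changes were 1.5 to 2.1. Without control library 2 all 10 members were called higher at 34 °C. That refit kept controls with 3.03 and 6.54 CPM summed over the 10 genes, so its outcome was set by which library was removed. The share of all genes called in it is not given.

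In inguinal subcutaneous fat (ingSAT) 7 members passed the filter on low values and 1 was called, and lower, where 16.4% of 13977 genes were called and 9.27% were called lower. Myh2 measured 7.78, 0.216 and 7.67 CPM at 10 °C against 27.3, 74.2 and 11.1 at 22 °C (-2.85 ± 1.04, adjusted p = 0.134, edgeR). Myh4 measured 496, 7.19 and 585 CPM at 10 °C against 1169, 1169 and 347 at 22 °C (-1.30 ± 1.19). Cold library 2 held 0.00199% of its reads in the 10 genes and the other cold libraries up to 0.112%. The slow members stayed below 3 CPM in all 6 libraries. Skeletal muscle markers that are not members summed to 642, 19.2 and 937 CPM at 10 °C and 1436, 1480 and 674 at 22 °C, lowest in the same cold library 2, and their part in the Myh2 call was not tested. The call for Myh2 was lost without 22 °C library 2, with no member called, and without cold library 2 there were 2. Shares of all genes called in these refits are not given.

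Myosin transcripts in iBAT held a larger slow share than those in ingSAT or quadriceps. Per transcript length, Myh7 made up 7.97% to 12.6% of the 4 heavy chains in iBAT at 22 °C and 1.37% to 9.92% at 10 °C in the 10 °C experiment. In ingSAT it made up 0.0071% to 0.895%, with 3 of the 6 libraries resting on a single Myh7 read, and in quadriceps of the same experiment 0.363% to 0.595%. Over the 6 libraries of each, temperatures mixed, the share in iBAT was higher in 6 of 6 than in any ingSAT or quadriceps library (exact permutation test, two-sided, p = 0.0022 for either, 0.0032 adjusted over 3 comparisons). The quadriceps shares of the 10 °C experiment, with a median of 0.458%, had a higher median than those of the 34 °C experiment, at 0.328%, with ranges that overlapped between 0.363% and 0.436% (exact permutation test, two-sided, p = 0.026, adjusted 0.026). These 3 tests were chosen after the shares had been seen, so their p-values add nothing to the ranges given. For complete separation of 6 libraries from 6, 0.0022 is the only value the permutation test can give. The tests treat both temperatures alike and take no account of tissues that may come from the same mice. The iBAT and quadriceps libraries were sequenced at different centers. In iBAT at 22 °C Tnni1 made up 6.44% to 11.9% of the troponin I pair and Tnnt1 9.24% to 13.01% of the troponin T pair, ranges that overlap that of Myh7. Myl2 made up a larger share of the regulatory light chains, with a mean of 19.3% beside 10.1% for Myh7. The iBAT libraries of the 34 °C experiment that had enough reads lay lower, at 0.643% to 4.86% for Myh7. Across the mice and kits of the 2 experiments this was not tested.

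**Figure D4:**
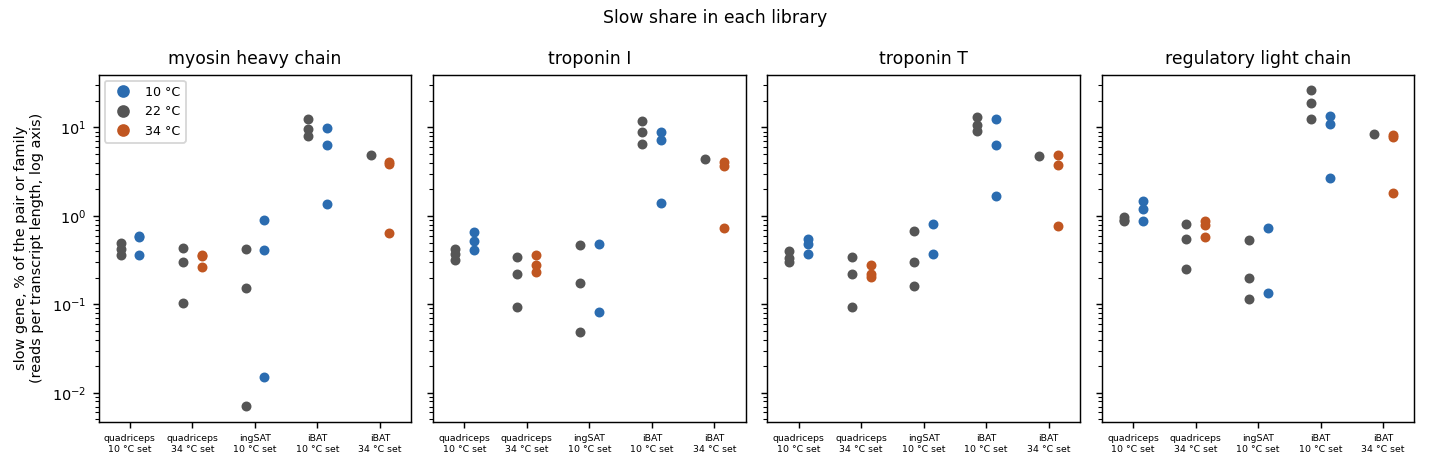
Share of the slow gene (y axis, % per transcript length, log scale) in the myosin heavy chain, troponin I, troponin T and regulatory light chain families, a point for each library with at least 100 reads in the family, by tissue and experiment and colored by temperature. For myosin heavy chain the iBAT libraries of the 10 °C experiment lie between 1.37% and 12.6%, above quadriceps (up to 0.595%) and ingSAT (up to 0.895%).

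Outside muscle and these depots the members were at trace levels, and single libraries decided most values. In perigonadal visceral fat (pgVAT) 6 members were tested and none was called, where 8.17% of genes were. There 22 °C library 3 held 30.7 CPM of Myh4 and the other 5 libraries 0.166 to 2.36. In liver at 10 °C none of 6 tested members was called (background 3.2%), and 22 °C library 3 held 27.96 CPM of Myh4 against 0.511 to 4.70 in the others. In liver at 34 °C only Mylpf could be tested, and it was not called (background 3.39%). In ileum only Mylpf and Tnnt1 could be tested, with no call at 10 °C (background 2.73%) or 34 °C (background 2.91%), and Tnnt1 stood at 1.75 to 4.16 CPM in the 12 libraries. Per transcript length Tnnt1 made up 87.4% to 99.4% of the troponin T pair in the 5 ileum libraries with at least 100 reads of it. In spleen none of the 4 tested members was called (background 2.71%), with Mylpf at 5.07 to 8.08 CPM, Tnni2 at 3.66 to 5.56 and Myh4 at no more than 0.0592 in any library.

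**Figure D5:**
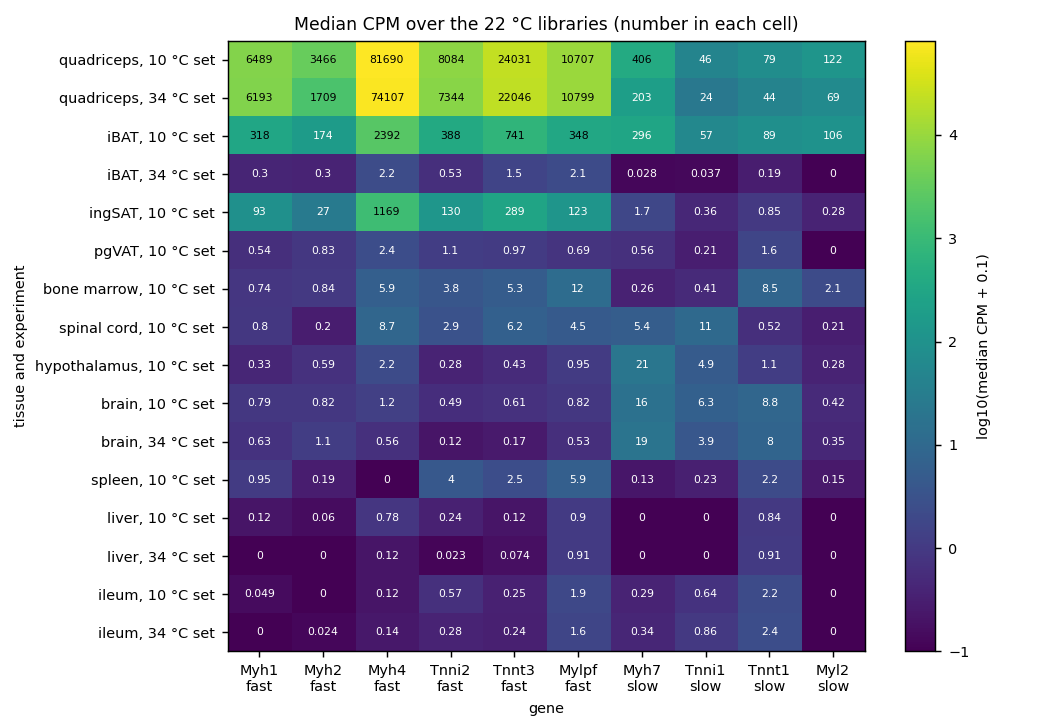
Median CPM of each gene (columns) over the 22 °C libraries of each tissue and experiment (rows), with the number in each cell and color for log10 of the median plus 0.1. Myh4 falls from 81690 in quadriceps to 0 in spleen, and Myh7 stands at 15.8 to 20.9 in brain and hypothalamus.

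In the central nervous system the slow genes Myh7 and Tnni1 were found in every library. Myh7 measured 19.002 to 23.2 CPM in the 6 hypothalamus libraries, 13.3 to 15.8 in the 5 brain libraries used at 10 °C, 16.4 to 21.2 in the 6 brain libraries of the 34 °C experiment and 5.08 to 11.4 in the 10 spinal cord libraries. Myh7 made up 71.0% to 93.8% of heavy chain reads per length in hypothalamus, and Myh4 stayed at or below 6.80 CPM there. Reads of antisense and overlapping genes on the Myh7 locus, among them Mhrt, could add to its count wherever strand was not used in counting.

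In hypothalamus 2 of 4 tested members were called lower at 10 °C, where 0.578% of 14526 genes were called and 0.179% were called lower. Tnni1 measured 3.33, 3.21 and 2.59 CPM at 10 °C and 4.91, 4.97 and 4.83 at 22 °C (-0.68 ± 0.16, adjusted p = 0.478, edgeR), with every cold library below every control. How many of all genes separated in this way is not given. Myh4 measured 1.63, 1.95 and 0.962 CPM against 2.16, 6.80 and 1.99 (-1.23 ± 0.45, adjusted p = 0.766, edgeR), with 1 control library carrying most of the difference. No gene there had an adjusted p under 0.05, 892 had an unadjusted p under 0.05, and without 10 °C library 3 neither member was called, with Tnni1 at -0.585, just short of the fold limit, and Myh4 at -0.998. Without 22 °C library 2 only Tnni1 was called, and Myh4 was at -0.434.

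For brain at 10 °C, 22 °C library 2 was left out as in earlier processing of these data, which left 2 libraries at 22 °C. Whether it stands apart was not tested. In this comparison 1 of 5 tested members was called, and higher (0.801% of all genes were called and 0.515% called higher). Myh4 measured 0.635, 5.07 and 5.28 CPM at 10 °C and 1.70 and 0.719 at 22 °C (1.63 ± 0.57, adjusted p = 0.395, edgeR), and the groups overlapped. Tnni1, at 4.4, 4.67 and 5.28 CPM against 5.595 and 7.03, and Myh7, at 13.4, 13.3 and 13.3 against 15.8 and 15.8, lay entirely lower at 10 °C, by folds under the limit (-0.42 ± 0.17 and -0.24 ± 0.11 on the log2 scale). Myl2, at 0.304 to 0.363 CPM against 0.411 and 0.425, lay lower too, so 3 of the 10 members did not overlap. Shares of all genes without overlap here, or called in the refits below, are not given. The left-out library, scaled together with all brain libraries of this experiment, held 8.06 CPM of Myh7 and 3.72 of Tnni1, below every cold library. With it included no member was called. The Myh4 call was lost without 10 °C library 3 or without 22 °C library 3, and 2 members were called without 10 °C library 1.

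In brain at 34 °C 2 of 6 tested members were called lower (0.193% of all genes were called and 0.15% called lower). Myh4 measured 0.386, 0.262 and 0.474 CPM at 34 °C and 19.7, 0.548 and 0.562 at 22 °C, and Tnnt3 0.142, 0.0819 and 0.171 against 5.49, 0.0203 and 0.165. Both differences come from 22 °C library 1. In every other library both genes stood at 0.562 CPM or less, under the filter of an average log2 CPM above 0. They passed that filter only through library 1. No member was called without it, but for these 2 genes that outcome was set by the filter and is no test. Other skeletal muscle genes moved with them, with Atp2a1, the fast fiber calcium pump (-2.95 ± 0.86), and Ttn (-0.91 ± 0.35) called lower. Skeletal muscle markers that are not members summed to 101, 82.4 and 62.8 CPM at 22 °C, highest in library 1, and to 53.2 to 66.0 at 34 °C, and their part was not tested. In brain this sum cannot be read as muscle alone. Library 1 at 10 °C of the 10 °C experiment held 188 CPM of these markers beside 2.81 CPM of the fast members. Tnnt1 measured 5.36, 5.16 and 5.59 CPM at 34 °C and 8.04, 7.13 and 8.47 at 22 °C (-0.55 ± 0.12, adjusted p = 0.9995, edgeR), with every warm library below every control and a fold just under 1.5. How many of all genes separated in this way is not given.

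In bone marrow, with 6 libraries a group, 1 of 6 tested members was called lower at 10 °C (1.26% of all genes were called and 0.615% called lower). Tnni2 measured 1.59 to 5.10 CPM at 10 °C, with a median of 1.93, and 2.59 to 8.50 at 22 °C, with a median of 3.79 (-0.86 ± 0.32, adjusted p = 0.0699, edgeR). Skeletal muscle markers that are not members had a median sum of 6.58 CPM at 10 °C and 24.8 at 22 °C, and their part in the Tnni2 call was not tested. Tnnt1 measured 6.39 to 7.32 CPM at 10 °C and 7.33 to 10.3 at 22 °C (-0.29 ± 0.097, adjusted p = 0.0493, edgeR), with all cold libraries below all controls and a fold under the limit. How many of all genes separated in this way is not given. Mylpf stood at 10.8 to 15.7 CPM in the 12 libraries, with overlapping groups. In spinal cord, with 5 mice a group, none of 8 tested members was called (background 0.271%). Tnni1 measured 8.38 to 11.1 CPM at 10 °C and 9.78 to 13.5 at 22 °C (-0.22 ± 0.11, adjusted p = 0.779, edgeR), and the groups overlapped. Myh4 ranged from 0 to 35.8 CPM among the 10 mice.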

How the data were processed

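The authors deposited raw read counts per gene: reads mapped to mm10 and counted per gene with tools that the submitters' notes list as STAR 2.5.3a, Picard 1.141 and HTSeq 0.6p1. They prepared 8 tissues of the 10 °C experiment with a NEBNext kit at another center, and bone marrow, spinal cord and the 34 °C tissues with a stranded TruSeq kit. Where Ensembl identifiers were given, 21583 of 21647 were matched to symbols through GENCODE. Here edgeR 4.0.16 in R 4.3.3 was run within each comparison on genes with an average log2 CPM above 0, with TMM scaling, and tested on simulated data. Fold changes are temperature over 22 °C, and SE is the log2 fold change divided by the root of F. Libraries of 2 pooled mice are the replicates, except spinal cord (5 mice a group) and bone marrow (6 a group). Of 143 library pairs within groups 0 were identical. The members, lists and tests were chosen with earlier results of these data known. Named partner genes are the called ones of each list, at most 5 by the smallest p, with the rest counted or named. Alternatives were DESeq2 1.42.0, edgeR's exact test, other scalings and filters, left-out libraries and a replicate block. More counts per library lower counting error, and the errors given hold both counting error and the spread between libraries.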

Additional observations from a re-analysis of the deposited data

Results flagged for a closer look

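In groups of 4 to 10 libraries, a member was picked out where its highest or lowest library lay farther from the nearest other than Dixon's criterion allows. Of 28 groups of member values examined, 11 were picked out. The criterion's rate of about 1 in 20 holds for independent, normally distributed values. Members of 1 library share its dissection, depth and scaling, so the 11 cannot be set against that rate. All 11 were the highest library and came from 4 libraries. Bone marrow library 4 at 10 °C held 25.6 CPM of Myh4 (next 2.54), 5.10 of Tnni2 (next 2.10) and 9.40 of Tnnt3 (next 3.09). Bone marrow library 3 at 22 °C held 8.50 CPM of Tnni2 (next 4.32) and 12.7 of Tnnt3 (next 6.03). Spinal cord library 6 at 22 °C held 3.90 CPM of Myh1 (next 1.12), 1.20 of Myh2 (next 0.338), 35.8 of Myh4 (next 9.89) and 6.56 of Myh7 (next 5.39). Spinal cord library 4 at 10 °C held 6.96 CPM of Myh2 (next 0.762) and 11.4 of Myh7 (next 6.20). Skeletal muscle markers that are not members were highest in the same 4 libraries. They summed to 61.4 CPM in bone marrow library 4 at 10 °C and 60.5 in library 3 at 22 °C, against 3.22 to 30.3 in the other 10. In spinal cord they summed to 236 CPM in library 6 at 22 °C and 216 in library 4 at 10 °C, against 102 to 161 in the other 8. There the sum cannot be read as muscle alone, since library 1 at 10 °C held 102 CPM of it beside 2.19 CPM of the fast members. The part of these markers was not tested.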

How the results depend on the processing

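With 2 to 6 libraries a group only large changes could be called, and at trace levels single libraries decide. Requiring an adjusted p under 0.05 left 2 called members in iBAT at 10 °C and 0 in ingSAT, in hypothalamus, in brain at 10 °C and 34 °C and between the quadriceps control sets. DESeq2 called 0 in brain at both temperatures and 3 in pgVAT, where edgeR's exact test called 2. With no filter beyond 1 count, 3 were called in pgVAT, 1 in liver at 10 °C, 3 in liver at 34 °C, 2 in bone marrow, 1 in spinal cord and 4 in brain at 34 °C, and edgeR's filterByExpr gave 1 in spinal cord. In liver of the 34 °C experiment, library 1 at 34 °C held 171 Myh4 reads and every other library 4 to 6. All 22 °C brain libraries gave 0 in brain at 10 °C. Shares of all genes called under these settings are not given, so the counts show only how calls move with the setting. The cause was not tested.

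In quadriceps at 10 °C the slow members changed sign when scaled by library size only (log2 fold change 0.141 for Myh7, 0.268 for Tnni1, 0.198 for Tnnt1, 0.25 for Myl2) or against all 22 °C libraries of both experiments (0.278, 0.438, 0.332 and 0.39 in the same order). At 34 °C against all 22 °C libraries all but Mylpf changed sign: Myh1 -0.139, Myh2 -0.274, Myh4 -0.101, Tnni2 -0.0561, Tnnt3 -0.056, Myh7 -0.246, Tnni1 -0.117, Tnnt1 -0.369 and Myl2 -0.103. None of these was called, and the second setting adds controls of another experiment. Apart from left-out libraries, 254 values of single genes and shares kept direction and side of the limit, and 23 kept direction but lost the call.

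Leaving out each library in turn gave 0 to 4 called members in quadriceps at 34 °C, 2 to 5 between the control sets, 0 to 3 for the difference of the 2 changes, 4 to 10 in iBAT at 10 °C, 0 to 10 in iBAT at 34 °C, 0 to 2 in ingSAT, 0 to 4 in pgVAT, 0 to 3 in liver at 10 °C, 0 to 2 in hypothalamus, 0 to 2 in brain at 10 °C and 0 to 4 in brain at 34 °C. It moved the quadriceps log2 fold changes at 10 °C over -0.664 to -0.056 for Myh1, -0.55 to -0.0725 for Myh4, -0.506 to -0.139 for Mylpf, -0.27 to 0.119 for Myh7, -0.19 to 0.328 for Tnni1, -0.234 to 0.249 for Tnnt1 and -0.197 to 0.184 for Myl2, and at 34 °C over -0.152 to 0.29 for Myh1, -0.189 to 0.227 for Myh4, -0.136 to 0.0588 for Mylpf, -0.0677 to 0.955 for Myh7 and -0.127 to 0.747 for Tnnt1. It was not run in bone marrow, and the share of all genes called in each refit is not given.

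Replicate numbers of the 10 °C tissues were not taken to pair the libraries. With so few libraries a group, the check below cannot exclude pairing. The correlation of deviations from the group means between same-numbered libraries was not over 0.1 in every pair of any tissue, and ran from -0.794 in spleen to 0.549 in iBAT. With a replicate block 9 members were called in iBAT, 0 in ingSAT and 2 in bone marrow, and the share of all genes called with it is not given. The median slow share of troponin I in quadriceps was 0.527% from raw reads and 0.22% over all annotated exons, a length chosen after seeing the data, against 0.353%.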
